A study of Bos taurus with 15 samples.

Results

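The bovine genes of the peroxiredoxins (PRDX1 to PRDX6), the thioredoxins (TXN and TXN2) and the intracellular superoxide dismutases (SOD1 and SOD2) were followed in the transcriptomes of blastocysts that had developed with or without oviductal extracellular vesicles (oEVs). The genes were chosen by name, but with earlier results of these data known, and PRDX2 was taken as gene 286793. All 10 were among the 10832 genes that the authors kept after removing genes with low counts, out of 34773 counted genes, so none was lost to the filter.

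Bovine embryos produced by in vitro fertilization were cultured to day 7 under 3 treatments, and total RNA was sequenced in 15 libraries, 5 per treatment. The control (Co) had no supplementation, FeEV embryos were supplemented with fresh oEVs, and FoEV embryos with oEVs that had been frozen. Per the methods, the oEVs came from oviductal fluid of slaughtered cows in the postovulatory stage, and the material for both oEV treatments came from the same oviducts, so that FoEV and FeEV treatments differed by the freezing and thawing. Each library was made from 1 ng of RNA from a pool of 8 to 14 embryos, and the 5 libraries per treatment were those with the best RNA among 6 Co, 7 FeEV and 8 FoEV pools. A pool averages over its embryos and over the cell types within them.

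Superoxide dismutases convert superoxide into hydrogen peroxide, SOD1 with copper and zinc mainly in the cytosol and SOD2 with manganese in mitochondria. Peroxiredoxins then reduce hydrogen peroxide with a reactive cysteine, and for most of them thioredoxin returns this cysteine to its reduced form and is itself recharged by thioredoxin reductase. Embryos cultured in vitro are known to be sensitive to such oxidants.

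The libraries held 2571558 to 2977004 counts on genes in Co, 2136713 to 3808602 in FeEV and 3392613 to 4058887 in FoEV, so every FoEV library was deeper than every Co library. The labelled blastocyst stage was checked with 8 trophectoderm, 4 inner cell mass and 6 hypoblast markers, of which 7, 4 and 5 were kept after filtering. Markers of other cells that could have come with the embryos or the oEVs were also summed. The summed level of 7 cumulus and granulosa cell markers ran from 24.2 to 45.6 counts scaled to a common library total (CPM), with PTX3 at 0 in 14 libraries. The highest of these 7 was the aromatase gene CYP19A1, at up to 38.6 CPM. Of the oviduct markers, the glycoprotein gene OVGP1 did not exceed 1.51 CPM, while PAX8 reached 12.4 and TPPP3 13.1 CPM. Of the blood markers, the hemoglobin gene HBB was at 0 in all 15 libraries, and HBA reached 6.41 CPM, in a Co library. In bulk RNA from pools, fewer cells of a type and less RNA per cell cannot be told apart.

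Of the 10 genes, PRDX1 took 44.9 to 52.9% of the reads counted on them, and together they took 0.167 to 0.223% of all counts in Co, 0.166 to 0.245% in FeEV and 0.185 to 0.264% in FoEV. The values below are CPM scaled by TMM, a normalization for library composition, and are given in the order of replicates 1 to 5 of each treatment. The replicate numbers are those of the titles, and no source used here states that equal numbers mark paired pools. The values are not divided by transcript length, so levels are compared between treatments for 1 gene and not between genes. Counts ranged from 37 to 130 per library for PRDX5 and from 2065 to 4960 for PRDX1, so PRDX4, PRDX5 and the mitochondrial genes had the larger counting error.

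**Figure D1:**
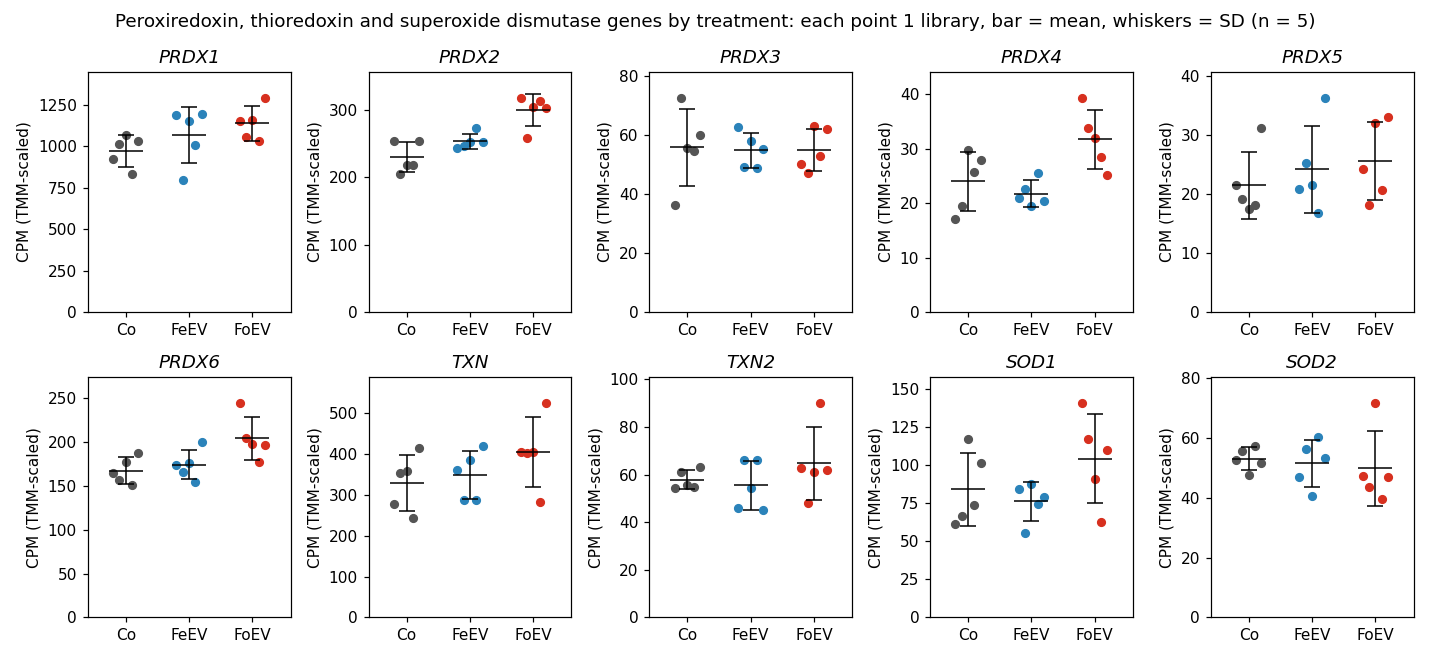
Scaled CPM (y axis, from 0) of each of the 10 genes in the 15 libraries, by treatment (x axis). Points are libraries and bars are means with the SD over 5 libraries. The 5 FoEV libraries lie above all 5 Co libraries for PRDX2, and the treatments overlap for the other 9 genes.

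For FoEV treatment vs. Co, PRDX2 separated the treatments, whereas the other 9 genes overlapped between them. PRDX2 encodes a cytosolic 2-cysteine peroxiredoxin that is abundant in red blood cells. It was at 253, 205, 218, 218 and 253 CPM in Co, at 243, 247, 252, 272 and 252 CPM in FeEV and at 318, 258, 303, 312 and 303 CPM in FoEV. The lowest FoEV library, replicate 2 at 258 CPM, was above the highest Co library at 253 CPM, and it lay within the range of the FeEV libraries. Mean levels over 5 libraries were 299 ± 23.9 CPM (SD) with frozen oEVs, 253 ± 11.5 with fresh oEVs and 229 ± 22.2 in Co. The fitted difference of FoEV from Co was 0.38 on the log2 scale with a standard error (SE) of 0.08, a ratio of 1.30. PRDX2 ranked 22nd of the 10832 genes by its p of 0.000170, and its edgeR adjusted p was 0.0757, which did not pass the threshold of 0.05. It passed without FoEV replicate 2 (edgeR adjusted p = 0.0410), with the robust likelihood ratio test of edgeR that the study used (adjusted p = 0.00421) and with DESeq2 (adjusted p = 0.00323). It did not pass in 9 of the 10 fits that left out 1 library (edgeR adjusted p up to 0.223). Of the 11 other alternatives, 7 did not bring it under the threshold. The study itself lists PRDX2 among the genes changed on these same libraries, so this is not independent evidence of its direction.

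Across all genes, 1.26% had all FoEV libraries above all Co libraries, 1.35% had them all below, and 0.00923% were called at an adjusted p under 0.05, which is 1 gene. Of the 10 genes of interest, 1 separated in this way and 0 were called. At an unadjusted p under 0.05, 4 of the 10 were higher in FoEV and 0 were lower, against 8.18% of all genes higher and 6.88% lower (15.1% in either direction). In sign alone, 8 of the 10 log2 fold changes were above 0, against 52.3% of all genes, and their median was 0.28, against 0.01 over all genes.

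By fitted log2 fold change, trophectoderm markers were also higher in FoEV than in Co, and most hypoblast markers were lower. The FoEV libraries were deeper as well. Of the 7 trophectoderm markers tested, 7 had a log2 fold change above 0 for FoEV treatment vs. Co and 4 an unadjusted p under 0.05. These were GATA2 (0.34), GATA3 (0.19), KRT8 (0.25) and KRT18 (0.55). The others were CDX2 at 0.21 (SE 0.20), TFAP2C at 0.20 (SE 0.11) and PTGS2 at 0.01 (SE 0.21). For KRT18, the keratin of simple epithelia, the SE was 0.13 and the edgeR adjusted p was 0.0818. The summed level of the 8 markers ranged from 7755 to 10627.5 CPM in Co, from 8251 to 12324 in FeEV and from 10042.5 to 13418 in FoEV. KRT8, KRT18 and PTGS2 are by far the most counted of the 8. The pluripotency gene NANOG had a log2 fold change of -0.84 (SE 0.26, unadjusted p = 0.00641, edgeR adjusted p = 0.178). Of the other inner cell mass markers, PRDM14 was at -0.24 (SE 0.17), SOX2 at -0.03 (SE 0.25) and POU5F1 at 0.21 (SE 0.11). The summed levels of the 4 markers, of which POU5F1 is the most counted, overlapped, at 251 to 329 CPM in Co and 235 to 359 in FoEV. Of the 5 hypoblast markers tested, 4 were below 0, with a median of -0.29, and FN1 had an unadjusted p under 0.05 (-0.29, SE 0.14, unadjusted p = 0.0496, edgeR adjusted p = 0.331). Their summed levels overlapped, at 6360 to 8881 CPM in Co and 4645 to 7353 in FoEV. The part of these markers in the values of the 10 genes was not tested. With all libraries thinned to the same number of counts, the log2 fold change of PRDX2 was 0.37 (SE 0.09). In that fit 4 of the 10 genes again had an unadjusted p under 0.05, as did 1496 of all 10832 genes.

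The other cytosolic peroxiredoxins, PRDX1 and PRDX6, had higher means in FoEV than in Co, with ranges that overlapped. PRDX1, the most widely expressed 2-cysteine peroxiredoxin, was at 919, 1014, 1065, 829 and 1030.5 CPM in Co, at 1188, 794, 1153, 1009 and 1193 CPM in FeEV and at 1148, 1053, 1154, 1033 and 1292 CPM in FoEV. The lowest FoEV library lay within the Co range and the lowest of all was in FeEV, so no pair of treatments separated. FoEV differed from Co by 0.23 on the log2 scale (SE 0.11, unadjusted p = 0.0430, edgeR adjusted p = 0.313), and the unadjusted p stayed under 0.05 in 5 of the 10 fits that left out 1 Co or FoEV library. It was 0.0849 without Co replicate 1, 0.126 without Co replicate 4, and 0.0641, 0.0729 and 0.125 without FoEV replicates 1, 3 and 5.

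PRDX6 is the peroxiredoxin with a single catalytic cysteine, which is recharged with glutathione, and the protein also cleaves phospholipids. It was at 164, 157, 178, 151 and 188 CPM in Co, at 173, 166, 176, 155 and 200.3 CPM in FeEV and at 245, 204, 198, 178 and 197 CPM in FoEV. Of the FoEV libraries, 4 were above the highest Co library and replicate 4 was not. Fitted over all libraries, the FoEV difference from Co was 0.29 on the log2 scale (SE 0.10, unadjusted p = 0.00668, edgeR adjusted p = 0.179), and the unadjusted p stayed under 0.05 in 10 of 10 fits that left out 1 library. The later bovine annotation places PRDX6 across the genes AADACL3 and SLC9C2, which had 0 to 2 and 0 to 3 counts per library. It also places TXN across LOC132346006, which has no row of counts. Whether the counting used strand was not given in the sources used here.

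PRDX4, which works in the endoplasmic reticulum, was at 17.1, 19.6, 29.7, 25.7 and 27.9 CPM in Co, at 20.9, 22.7, 19.4, 25.5 and 20.4 CPM in FeEV and at 39.4, 33.8, 32.0, 28.4 and 25.1 CPM in FoEV. FoEV replicates 1 to 3 were above every Co library, and FoEV replicate 5 was below the highest FeEV library. FoEV minus Co on the log2 scale was 0.41 (SE 0.16, unadjusted p = 0.0170, edgeR adjusted p = 0.230). This was the largest log2 difference of the 10 genes in this comparison, with a larger error than that of PRDX2, and its unadjusted p was 0.0652 without FoEV replicate 1, 0.0611 without Co replicate 1 and 0.0520 without Co replicate 2.

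The mitochondrial genes PRDX3, TXN2 and SOD2 had log2 fold changes from -0.09 to 0.16 for FoEV treatment vs. Co. PRDX3, the main mitochondrial peroxiredoxin, was at 36.1, 72.5, 55.5, 54.6 and 59.9 CPM in Co, at 62.6, 49.0, 57.9, 48.7 and 55.3 CPM in FeEV and at 50.0, 46.9, 62.8, 52.8 and 61.9 CPM in FoEV. Both the lowest and the highest library were Co libraries, and all FoEV and FeEV values fell between them. The log2 fold change of FoEV from Co was -0.02 (SE 0.14), and its sign changed when single libraries were left out.

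TXN2, the mitochondrial thioredoxin that recharges PRDX3, was at 54.3, 61.1, 55.8, 55.0 and 63.2 CPM in Co, at 45.9, 66.1, 54.4, 66.0 and 45.3 CPM in FeEV and at 63.0, 47.9, 60.9, 90.1 and 61.9 CPM in FoEV. The highest value, 90.1 CPM in FoEV replicate 4, stood well above the other FoEV libraries, which lay within the range of the FeEV libraries. FoEV differed from Co by 0.16 on the log2 scale (SE 0.14, unadjusted p = 0.283). It was 0.0139 without FoEV replicate 4, 0.25 without FoEV replicate 2 and 0.0953 with the robust likelihood ratio test.

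SOD2 was at 52.5, 55.7, 47.4, 57.4 and 51.7 CPM in Co, at 46.8, 56.1, 40.7, 60.1 and 53.4 CPM in FeEV and at 47.2, 43.6, 71.6, 39.4 and 46.9 CPM in FoEV. FoEV replicate 3 at 71.6 CPM was above every other library, and the other 4 FoEV libraries were below every Co library. Fitted over all libraries, the FoEV difference from Co was -0.09 on the log2 scale (SE 0.14, unadjusted p = 0.545). Without FoEV replicate 3 it was -0.26 (unadjusted p = 0.0413), and it was -0.04 and -0.02 without FoEV replicates 2 and 4.

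PRDX5, an atypical peroxiredoxin found in mitochondria, peroxisomes and the cytosol, was at 21.5, 19.2, 17.4, 18.1 and 31.2 CPM in Co, at 20.9, 25.3, 21.6, 16.9 and 36.3 CPM in FeEV and at 24.3, 18.2, 32.0, 20.7 and 33.0 CPM in FoEV. Replicate 5 was the highest library in every treatment, and the 3 ranges overlapped. FoEV minus Co on the log2 scale was 0.26 (SE 0.21, unadjusted p = 0.231). It was 0.43 without Co replicate 5 (unadjusted p = 0.0566), and 0.16 and 0.15 without FoEV replicates 3 and 5.

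The 2 remaining cytosolic genes had wide spreads. TXN, the cytosolic thioredoxin that recharges PRDX1 and PRDX2, was at 278, 354, 358, 243 and 415 CPM in Co, at 361, 288, 385, 287 and 419 CPM in FeEV and at 406, 402, 406, 283 and 526 CPM in FoEV. Replicate 4 was the lowest and replicate 5 the highest library in every treatment. FoEV replicate 4 was near the bottom of the Co range, while the other 4 FoEV libraries were above 4 of the Co libraries. The log2 fold change of FoEV from Co was 0.30 (SE 0.16, unadjusted p = 0.0864, edgeR adjusted p = 0.402), and it moved in both directions with single libraries. It was 0.40 without FoEV replicate 4 (unadjusted p = 0.0148), 0.39 without Co replicate 5 (unadjusted p = 0.0285) and 0.18 without FoEV replicate 5 (unadjusted p = 0.253). With no filter on low counts the unadjusted p of TXN was 0.00459.

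SOD1 was at 61.3, 66.8, 117, 73.8 and 101 CPM in Co, at 84.3, 55.3, 87.6, 74.7 and 79.1 CPM in FeEV and at 141, 117, 90.9, 62.4 and 109.6 CPM in FoEV. The FoEV libraries ran from near the lowest Co library to above the highest. FoEV differed from Co by 0.31 on the log2 scale (SE 0.21, unadjusted p = 0.154, edgeR adjusted p = 0.491). Single libraries moved it in both directions, to 0.18 without FoEV replicate 1 (unadjusted p = 0.392), to 0.45 without FoEV replicate 4 (unadjusted p = 0.0251) and to 0.47 without Co replicate 3 (unadjusted p = 0.0370). The robust likelihood ratio test gave 0.39 (unadjusted p = 0.0326), and without a filter the unadjusted p was 0.0373.

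**Figure D2:**
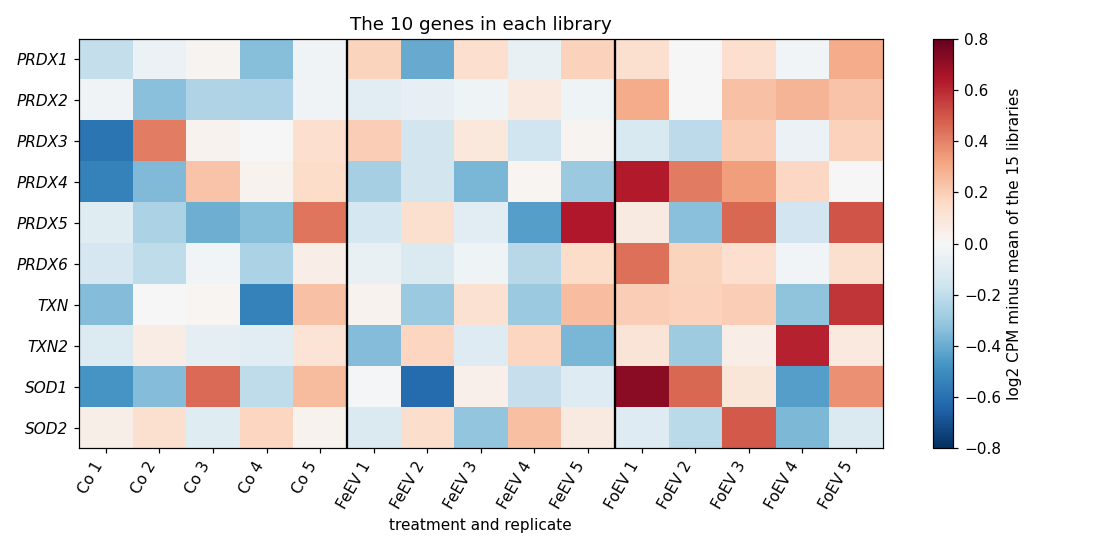
Log2 CPM of the 10 genes (rows) in the 15 libraries (columns, by treatment and replicate), each shown as the difference from the mean of that gene over all libraries (colour scale). The 4 highest levels of PRDX2 are in FoEV libraries, and PRDX1 and TXN share their low libraries, such as Co replicate 4.

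FeEV treatment vs. Co, which shares its Co libraries with the comparison above, gave no call among the 10 genes. At an unadjusted p under 0.05, 0 of the 10 genes differed in the quasi-likelihood test of edgeR, against 4.15% of all genes (1.83% higher and 2.32% lower), and at an adjusted p under 0.05 0% of all genes were called. The signs were split evenly, with 5 log2 fold changes above 0 and 5 below, against 51% of all genes above 0, and the median was 0.02. The log2 fold changes for FeEV treatment vs. Co were 0.14 for PRDX1, 0.14 for PRDX2 (SE 0.09, unadjusted p = 0.111), 0.06 for PRDX6, 0.19 for PRDX5 and 0.08 for TXN. They were -0.02 for PRDX3, -0.15 for PRDX4, -0.07 for TXN2, -0.14 for SOD1 and -0.05 for SOD2. No gene of the 10 had all its FeEV libraries above or below all its Co libraries, against 0.535% and 0.415% of all genes. Without FeEV replicate 2, PRDX1 had a log2 fold change of 0.23 (unadjusted p = 0.0251). DESeq2 also called 0 of the 10 in this comparison at an adjusted p under 0.05.

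For FoEV vs. FeEV treatment, which asks what the freezing of the oEVs changed, 4 of the 10 genes were higher in FoEV at an unadjusted p under 0.05 and 0 were lower, against 4.83% and 3.69% of all genes (8.52% in either direction). At an adjusted p under 0.05, edgeR called 0% of all genes and 0 of these 10, and DESeq2 also called 0 of the 10. PRDX4 had the largest difference, 0.56 on the log2 scale (SE 0.16, unadjusted p = 0.00198, edgeR adjusted p = 0.450). Its mean was 31.7 ± 5.43 CPM in FoEV and 21.8 ± 2.40 in FeEV (SD, n = 5), and the ranges overlapped in 1 FoEV library.

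PRDX2 was higher in FoEV than in FeEV by 0.24 (SE 0.08, unadjusted p = 0.00926, edgeR adjusted p = 0.496). PRDX6 differed by 0.23 (SE 0.10, unadjusted p = 0.0257, edgeR adjusted p = 0.539) and SOD1 by 0.45 (SE 0.21, unadjusted p = 0.0474, edgeR adjusted p = 0.578). The unadjusted p of PRDX2 and PRDX4 stayed under 0.05 in all 10 fits that left out 1 FeEV or FoEV library, that of PRDX6 in 7 and that of SOD1 in 3. For PRDX6 it was 0.0533 and 0.0738 without FeEV replicates 2 and 4 and 0.112 without FoEV replicate 1. For SOD1 it lay between 0.0515 (without FeEV replicate 1) and 0.141 (without FoEV replicate 1) in the 7 fits above 0.05, and at 0.110 in the thinned counts. Among the fits that left out 1 library, TXN came under 0.05 without FoEV replicate 4 (0.0448) and TXN2 without FoEV replicate 2 (0.0326), and TXN also did with no filter on low counts (0.0428). The remaining log2 fold changes were 0.09 for PRDX1, 0.07 for PRDX5, 0.22 for TXN, 0.23 for TXN2, -0.04 for SOD2 and -0.00104 for PRDX3. In sign, 8 of the 10 were above 0, against 51.8% of all genes, with a median of 0.22 against 0.00918. In the same comparison 7 of 7 trophectoderm markers were above 0, with a median of 0.11 and KRT18 at 0.29 (unadjusted p = 0.0355, edgeR adjusted p = 0.562), and their part in the values of the 10 genes was not tested. No gene of the 10 had all its FoEV libraries above or below all its FeEV libraries, against 0.757% and 0.748% of all genes. This comparison shares its FoEV libraries with that of FoEV treatment and Co, so the 2 sets of values are not independent.

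**Figure D3:**
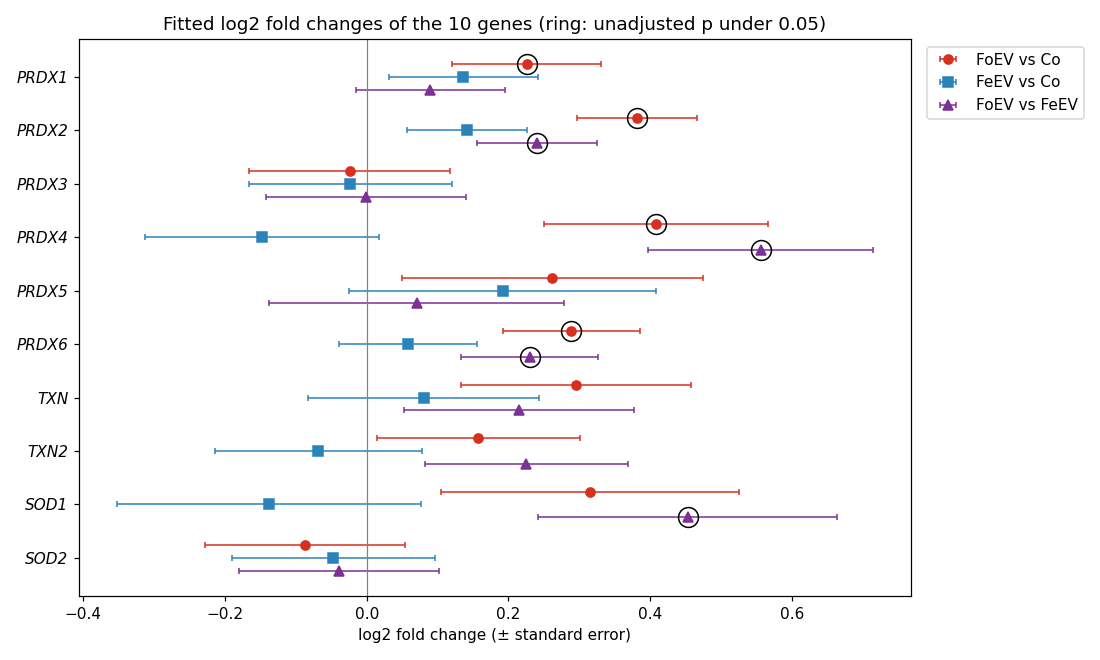
Fitted log2 fold changes (x axis) of the 10 genes (y axis) in the 3 comparisons, with bars of 1 SE, and rings where the unadjusted p is under 0.05. PRDX2 for FoEV treatment vs. Co (0.38) lies farthest from 0 relative to its error, PRDX4 for FoEV vs. FeEV treatment (0.56) has the largest value, and no FeEV value is ringed.

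**Figure D4:**
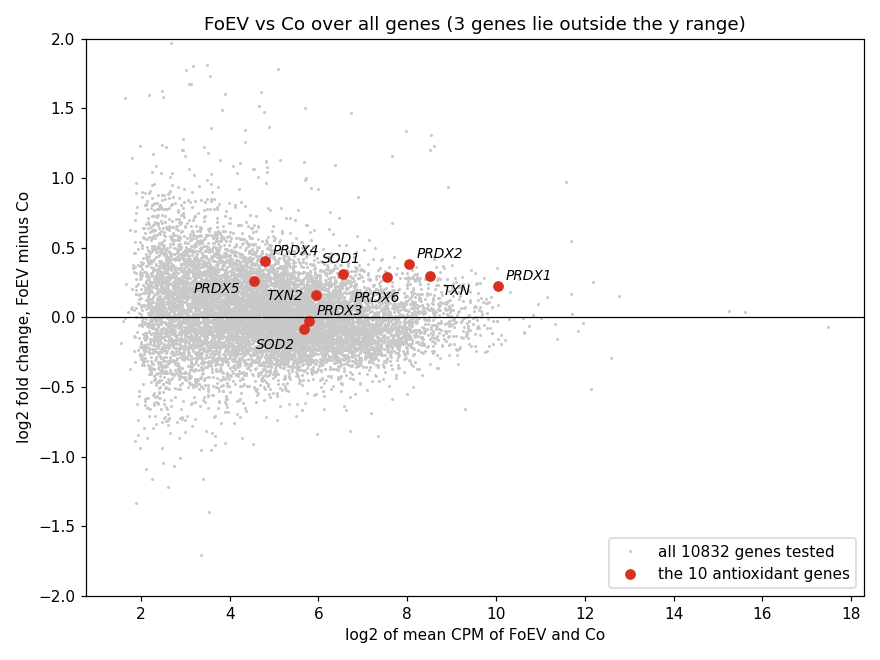
Log2 fold change of FoEV treatment vs. Co (y axis) against the log2 of the mean CPM (x axis) for all 10832 genes (grey), with the 10 genes in red. Of the 10, 8 lie above 0, with PRDX4 (0.41) and PRDX2 (0.38) highest, and PRDX3 (-0.02) and SOD2 (-0.09) lie just under 0.

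Of 29 listed genes whose products work with these proteins, here called partners, 23 were kept after filtering. For FoEV treatment vs. Co, 12 of the 23 log2 fold changes were above 0 and 11 below, against 52.3% of all genes above 0, with a median of 0.00645. Of the 23, 1 gene (higher in FoEV) had an unadjusted p under 0.05, against 15.1% of all genes. This was GLRX, the cytosolic glutaredoxin that uses glutathione in place of thioredoxin. It was at 156, 172, 189.9, 151 and 129.7 CPM in Co and at 225, 198, 195, 220.0 and 171 CPM in FoEV, where 4 of the FoEV libraries were above every Co library (log2 fold change 0.34, SE 0.11, unadjusted p = 0.00588, edgeR adjusted p = 0.174).

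For FoEV treatment vs. Co, the enzymes that recharge the cycle, and catalase beside it, had log2 fold changes within 1 SE of 0. Thioredoxin reductase 1 (TXNRD1) had a log2 fold change of 0.09 (SE 0.18) for FoEV treatment vs. Co, with 155 to 316 CPM in Co and 221 to 294 in FoEV. Sulfiredoxin (SRXN1), which rescues overoxidized peroxiredoxins, had one of 0.09 (SE 0.38). Catalase (CAT), which removes hydrogen peroxide without thioredoxin, had one of -0.11 (SE 0.12).

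TXNIP, which binds thioredoxin and inhibits it, was at 0.729, 13.8, 11.6, 8.03 and 4.51 CPM in Co, at 27.7, 18.6, 11.6, 14.1 and 6.15 CPM in FeEV and at 12.97, 24.2, 10.5, 19.4 and 13.6 CPM in FoEV. The Co libraries overlapped with those of both oEV treatments, and Co replicate 1, at 2 counts, was lowest. The log2 fold changes were 1.03 (SE 0.49, unadjusted p = 0.0553) for FoEV and 0.98 (SE 0.50, unadjusted p = 0.0700) for FeEV, both against Co and both sharing the Co libraries.

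For FeEV treatment vs. Co, 1 of the 23 partners had an unadjusted p under 0.05, a share near the 4.15% of all genes. This was MAP3K5, a stress kinase that is held inactive by reduced thioredoxin, and it had a log2 fold change of -0.44 (SE 0.20, unadjusted p = 0.0436, edgeR adjusted p = 1.00). For FoEV vs. FeEV treatment, 1 of the 23 was under 0.05, against 8.52% of all genes. The endoplasmic reticulum oxidase ERO1A had a log2 fold change of -0.20 (SE 0.09, unadjusted p = 0.0303, edgeR adjusted p = 0.552). In sign, 17 of the 23 partners were above 0, against 51.8% of all genes, with a median of 0.0535. No partner passed the adjusted threshold in edgeR. Of the 6 partners under the filter, the thioredoxin reductase of mitochondria, TXNRD2, had 3 to 32 counts per library and the copper chaperone of SOD1, CCS, 4 to 9. The extracellular superoxide dismutase SOD3 had 0 or 1 count in each library and 3 in all.

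**Figure D5:**
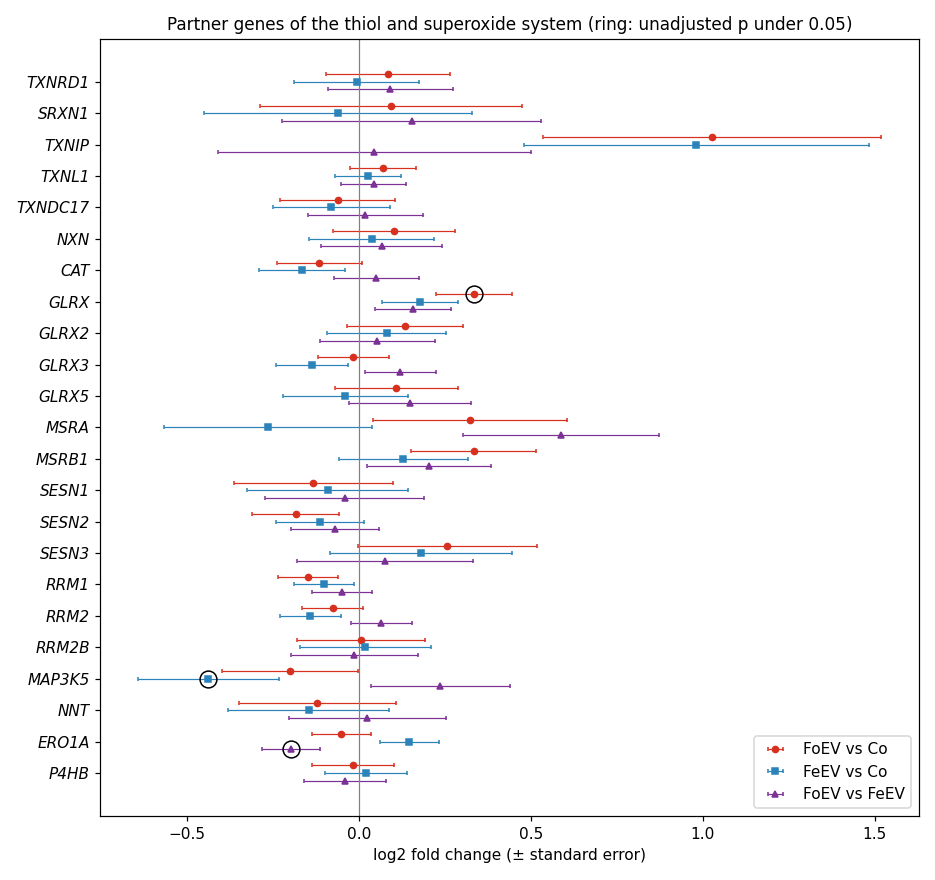
Fitted log2 fold changes (x axis, bars of 1 SE) of the 23 partner genes kept after filtering (y axis) in the 3 comparisons. Most values lie near 0, with GLRX at 0.34 for FoEV treatment vs. Co and TXNIP near 1 with wide bars for both oEV treatments against Co.

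The spread within treatments was compared with the counting error. The coefficient of variation over 5 libraries ran from 6.90% (TXN2) to 28.5% (SOD1) in Co, from 4.53% (PRDX2) to 30.7% (PRDX5) in FeEV and from 7.99% (PRDX2) to 28.2% (SOD1) in FoEV. The coefficient that counting alone gives ran from 1.54% (PRDX1 in FoEV) to 13.1% (PRDX5 in Co). TXN2 in Co was below its counting value of 7.94%, as were SOD2 in Co and PRDX4 in FeEV. PRDX2 had the smallest coefficient of the 10 in both oEV treatments, above its counting values of 3.64% in FeEV and 3.00% in FoEV. No single library was high or low for all genes. FoEV replicate 4 was the lowest FoEV library for PRDX1, PRDX6, TXN, SOD1 and SOD2 and the highest for TXN2, and FoEV replicate 1 was the highest for PRDX2, PRDX4, PRDX6 and SOD1.

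PRDX1 and TXN, the peroxidase and the thioredoxin that recharges it, varied together from library to library. With the treatment means subtracted, Pearson's r over the 15 libraries was 0.799 (permutation p = 8.0e-05, adjusted p = 0.0036) and Spearman's rho 0.886 (permutation p = 0.00014, adjusted p = 0.0063). Without the 2 libraries in which PRDX1 lay farthest from its median, r was 0.835, and TXN was not used to pick these libraries. The p-values come from 100000 permutations of the libraries within treatments and were adjusted over the 45 pairs of the 10 genes. This was the only one of the 45 pairs to pass. PRDX6 and SOD1 followed with an r of 0.716 (permutation p = 0.0091, adjusted p = 0.190). Over all 45 pairs, 28 had an r above 0 with a median of 0.0624, so the 10 genes did not vary as a block. Both values of a point come from 1 library and share its depth and scaling factor. Pairs with genes outside the 10 were not compared, so whether this covariation is particular to PRDX1 and TXN was not tested. The trophectoderm marker KRT8 had its lowest libraries where PRDX1 did, in Co replicate 4, FeEV replicate 2 and FoEV replicate 4. This did not hold in all 3 treatments for any other trophectoderm marker. KRT18 was lowest in FoEV replicate 2, and GATA3 was lowest in replicate 3 of every treatment. CDX2 was lowest in Co replicate 3, FeEV replicate 1 and FoEV replicate 2.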

How the data were processed

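Total RNA of bovine blastocyst pools was sequenced with reads of 125 bases, and the authors deposited raw read counts per gene, for all annotated genes and for those passing their low-count filter. Per the paper, reads were mapped to ARS-UCD1.2 (bosTau9) and counted with QuasR Qcount, while the submitters' processing notes name Trim Galore 0.4.3.1, HISAT2 2.1.0 and featureCounts 1.6.3. The sample labels give 7 days of culture, and the paper's text gives another length. Samples were grouped by their titles. Nothing states that the pools were separate cultures, so p-values measure the spread between these pools.

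Counts of the filtered table were fitted with edgeR 4.0.16 (R 4.3.3), with TMM factors, 1 quasi-likelihood fit (robust) over the 15 libraries, F tests for the 3 comparisons and Benjamini-Hochberg adjustment over 10832 genes, with a threshold of 0.05. CPM used the TMM-scaled totals, log2 CPM a prior count of 2, and SE is the log2 fold change over the square root of F. The test was checked on simulated data. Totals ran from 2136713 to 4058887 counts per library, which limits genes with few counts, and intervals from counting would not cover amplification. The alternatives were DESeq2 1.42.0, its size factors, upper quartile factors, a robust likelihood ratio test, 2 other filters, removal of 5 rRNA genes, fits on only 2 groups, 2 replicate blocks, thinned counts and leaving out each library.

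The named genes are the 10 genes in every comparison, 6 partners (TXNRD1, TXNRD2, SRXN1, TXNIP, CCS and CAT) where tested, and up to 6 other partners a comparison with the smallest unadjusted p under 0.05. Marker lists named here are trophectoderm, inner cell mass, hypoblast, cumulus or granulosa, oviduct epithelium and blood. The genes and lists were chosen with earlier results of these data known. Copies of these genes at other loci and transcript sequences were not analysed here. Correlations used Python 3.11.15 with numpy 2.4.6, pandas 2.3.3 and scipy 1.17.1, and figures matplotlib 3.10.9. Of the filtered genes, 10709 were matched to a later bovine annotation, used for names and overlaps alone.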

Additional observations from a re-analysis of the deposited data

Results flagged for a closer look

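In 51 groups of 5 libraries, over the 10 genes and the 7 partners named with fold changes in the text, 3 held a library far from the others by Dixon's ratio (critical value 0.71), and chance alone gives about 1 in 20. PRDX2 in FoEV replicate 2, at 258 CPM, lay below the other FoEV libraries, of which the next was at 303 CPM (ratio 0.754). When this library was left out, the edgeR adjusted p of PRDX2 against Co was 0.0410. In that fit 58 of all 10832 genes were called at an adjusted p under 0.05, against 1 with all libraries. SOD2 in FoEV replicate 3, at 71.6 CPM, lay above the next FoEV library at 47.2 CPM (ratio 0.757). SRXN1 in FoEV replicate 5, at 25.1 CPM, lay above the next at 15.3 CPM (ratio 0.791).

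MSRB2, a mitochondrial methionine sulfoxide reductase that depends on thioredoxin, was removed by the filter on low counts. It had 0 to 1 counts per library in Co, 0 to 3 in FeEV and 3 to 10 in FoEV. Its lowest FoEV library was at 0.757 CPM and its highest Co library at 0.322 CPM. These values are near the floor, and every FoEV library was deeper than every Co library. MSRB2 was picked from the 6 partners under the filter, and the share of all low-count genes that separate in this way was not computed.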

How the results depend on the processing

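For FoEV treatment vs. Co, the number of the 10 genes with an adjusted p under 0.05 was 1 (PRDX2) in place of 0 with the robust likelihood ratio test, with DESeq2 and without a filter (adjusted p = 0.0372), and 0 to 1 without single libraries. Over all settings the adjusted p of PRDX2 ran from 0.00323 to 0.223 and its log2 fold change stayed above 0. The number with an unadjusted p under 0.05 ran from 2 (without Co replicate 1 or FoEV replicate 1) to 6 (without FoEV replicate 4) when single libraries were left out. Among all 10832 genes, 1841, 1409 and 1284 were under 0.05 in these fits. For FeEV treatment vs. Co the number of the 10 ran from 0 to 1 (without FeEV replicate 2, with 401 of all genes). For FoEV vs. FeEV treatment it ran from 2 (without FeEV replicate 2, FeEV replicate 4 or FoEV replicate 1) to 5 (such as without FoEV replicate 4). Among all genes, 636, 742, 703 and 773 were under 0.05 in these fits. Without single libraries, the median log2 fold change ran from 0.18 to 0.36, from -0.01 to 0.06 and from 0.17 to 0.26 in the 3 comparisons.

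Some signs turned. PRDX3 for FoEV vs. FeEV treatment was 0.0113 with upper quartile factors. Without single libraries it ran from -0.0580 to 0.0525 there, from -0.15 to 0.0916 for FoEV treatment vs. Co and from -0.14 to 0.0928 for FeEV treatment vs. Co. For FeEV treatment vs. Co, SOD1 ran from -0.23 to 0.0144, TXN from -0.0108 to 0.18, SOD2 from -0.11 to 0.0271 and PRDX5 from -0.0103 to 0.36. For FoEV vs. FeEV treatment, PRDX5 ran from -0.0367 to 0.27 and SOD2 from -0.21 to 0.0301. The causes were not tested.

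Among all genes, the calls at an adjusted p under 0.05 were 1, 0 and 0 in the 3 comparisons, 311, 6 and 31 with the robust likelihood ratio test, 144, 1 and 3 with DESeq2, and 173, 13 and 22 without a filter. For FoEV treatment vs. Co they were 6 with thinned counts and 5 with upper quartile factors or only 2 groups.

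The replicate numbers of the titles were also used as a block. Correlations of the deviations of libraries with the same number ran from -0.29 to 0.35 for FoEV and Co. Of these libraries, 2 of 10 were closest to their own number. For FeEV and Co the values were -0.21 to 0.42 and 5 of 10, and for both oEV treatments 0.01 to 0.44 and 4 of 10. Mean correlations with the same number were 0.03, 0.14 and 0.19 in these comparisons, against -0.01, -0.03 and -0.05 for other pairs. Correlations with this spread cannot decide whether the numbers pair the samples. With this block, 57, 0 and 0 genes were called, and PRDX2 was the 1 called among the 10 genes for FoEV treatment vs. Co (adjusted p = 0.0372). The unadjusted p of TXN in this block fit was 0.00351 for FoEV treatment vs. Co and 0.0316 for FoEV vs. FeEV treatment. With the library numbers of the descriptions as the block, 12, 0 and 1 genes were called, and the number of the 10 with an unadjusted p under 0.05 was 1 for FoEV treatment vs. Co and 2 for FoEV vs. FeEV treatment. Among all 10832 genes, 1586 and 680 were under 0.05 in these comparisons with that block. That fit gave medians of 0.16, -0.04 and 0.16 in the 3 comparisons, and for FoEV treatment vs. Co it gave PRDX4 0.25, PRDX5 0.0827, SOD1 0.13 and TXN 0.19. In it PRDX6 was -0.00839 and TXN -0.0608 for FeEV treatment vs. Co, and PRDX3 was 0.0605 for FoEV vs. FeEV treatment.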

Other observations

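The hypoblast markers, of which FN1 is by far the most counted, summed to 5563 to 7910 CPM in FeEV. The 5 oviduct epithelium markers summed to 11.8 to 24.6 CPM over the 15 libraries, and the 5 blood and immune cell markers to 0.743 to 7.42 CPM.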
